A study of Mus musculus with 25 samples.

Results

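The step from 24 hr to 48 hr after an anti-CD3ε injection was measured in thymocytes that lack the kinase WNK1, by comparing 3 libraries taken at 48 hr with 3 taken at 24 hr. The features were all genes with a mean of at least 10 normalised reads over these 6 libraries, leaving out those on chromosomes X and Y. This left 13468 genes of the 48795 in the table, and the 6 libraries are 6 of the 25 in the series. The genes were chosen on their mean level alone, not on their change.

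The WNK1-deficient mice were Wnk1 fl/fl, CD2Cre and Rag1KO, aged 7 to 8 weeks. The control mice were Wnk1 fl/+, also CD2Cre and Rag1KO and of the same age, and 3 of their libraries were available at each of 24 hr and 48 hr. Rag1-/- mice cannot rearrange antigen receptor genes, so their thymocytes stop at the double negative 3 (DN3) stage, and CD3 cross-linking by the antibody (150 µg) stands in for the pre-TCR signal. All groups were sorted as Thy1.2+CD44- thymocytes, which takes DN3 and DN4 cells together, and each library came from 1 mouse. CD2Cre is driven by the human CD2 promoter, which acts in lymphoid cells, and deletes exon 2 of the floxed allele. The other exons of Wnk1 can therefore still be counted, and the control cells have lost 1 copy of the exon.

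WNK1 is a kinase that signals through OXSR1 and STK39 to cation-chloride cotransporters, and it also acts in T cell adhesion and migration. At β-selection, DN3 thymocytes that have made a pre-TCR shut down Ptcra and the recombinase genes, lose Notch dependence, divide and then turn on CD4 and CD8 on the way to the double positive (DP) stage. Notch receptors, cut at the membrane after binding ligand, hold the DN3 programme in place together with the DNA-binding protein RBPJ, and Ptcra, Hes1 and Dtx1 are among their known targets.

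The 6 libraries held between 24722734 and 57304830 reads each. Their sorted identity was checked on Thy1, Cd3e, Lck and Lat, all high in every library, with Thy1 at no less than 10980 and Lat at no less than 10847 normalised reads. Markers of other cell types were mixed. Siglech, Krt14 and Cdh5 (plasmacytoid dendritic cells, thymic epithelium, endothelium) reached at most 1.35, 0.661 and 5.29 normalised reads, but other genes of the same lists were well above 0, with Cst3 at 1319 to 2385, Epcam at 927 to 1477, Ccl25 at 145 to 310.2, Pdgfrb at 5209 to 9827 and Pecam1 at 8173 to 12862. The 24 hr libraries resembled each other closely, with a median SD over genes of 0.120 on the log2 scale, against 0.319 at 48 hr. Sequencing lane and time overlapped only in lane 3, which held 24 hr replicates 1 and 2 and 48 hr replicate 3, so the difference between these 3 libraries is given below as the value within lane 3. The transcripts of Xist and of the Y chromosome placed the 24 hr mice as male (Xist at most 12.6 normalised reads, Ddx3y at least 1581) and the 48 hr mice as female (Xist at least 18723, Ddx3y at most 1.23). Sex and time cannot be told apart for the autosomal genes described here. The sex of the control mice was not examined. A part of sex in the differences between the genotypes given below was therefore not tested.

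WNK1 itself was checked first. Wnk1 (GRCm38 chr6:119923969-120038695) gave 3056, 3170 and 3535 normalised reads at 24 hr and 9046, 5142 and 5145 at 48 hr in the WNK1-deficient libraries. The control libraries ranged from 5433 to 7281 at 24 hr and from 10506 to 16896 at 48 hr, above every deficient library of the same time. The deficient minus control difference was -0.95 ± 0.23 (log2, SE) at 24 hr and -1.05 ± 0.23 at 48 hr, with limma adjusted p = 0.0102 and 0.00554. The rise of Wnk1 reads from 24 hr to 48 hr in the deficient cells was 0.93 ± 0.23 on the log2 scale (adjusted p = 0.0185), against 1.04 in control (adjusted p = 0.0043). That call was lost without 24 hr replicate 1 (adjusted p = 0.0781), 24 hr replicate 2 (0.0750) or 48 hr replicate 1 (0.118), and with lane as a covariate (0.312).

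Across all genes, the deficient thymocytes gained transcripts of 8 genes of a DN3 stage list, of Itgae and Thy1, and of the cytokine-signalling inhibitor Socs3. They lost transcripts of several natural killer (NK) and innate-like genes, of both chains of the interleukin-18 receptor and of Nrgn. By limma on log2(normalised reads + 1), fitted over all 25 libraries, 945 of 13468 genes (7.02%) passed an adjusted p of 0.05. Of these, 480 (3.56%) rose and 465 (3.45%) fell, and 551 changed at least 2-fold. The 24 hr and 48 hr values did not overlap for 33.5% of all genes and for 932 of the 945. All 945 had the same sign within lane 3, but the libraries of that lane are among those that made the calls. For the 932 genes without overlap the sign was fixed in advance, so it was not a separate test of lane. With lane as a covariate, 293 of the 945 were still called. The number called depended on single libraries, being 330 without 24 hr replicate 1, 321 without 24 hr replicate 2 and 529 without 48 hr replicate 1, and it was 453 with lane as a covariate. Scaling the libraries to the same upper quartile changed the split to 399 rises and 668 falls, with the median over all genes shifted by -0.07 on the log2 scale.

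The largest rise among well-expressed genes was that of Itgae, which encodes the αE integrin chain (CD103) that binds E-cadherin on epithelium. Itgae (chr11:73090505-73147449) had 88.3, 147 and 195 normalised reads at 24 hr and 7131, 5094 and 1791 at 48 hr. Every 48 hr library was thus well above every 24 hr library, and the log2 change was 4.87 ± 0.52 (SE, adjusted p = 1.03e-05), with 3.96 within lane 3. Akap6, an anchoring protein for protein kinase A, went from 45.2, 21.4 and 105 to 1739, 1057 and 1028 (log2 change 4.69 ± 0.41, adjusted p = 6.77e-07). Slc16a5, of the monocarboxylate transporter family, had 102, 90.2 and 214 reads at 24 hr and 1615, 2228 and 2139 at 48 hr (3.97 ± 0.37, adjusted p = 1.59e-06). In both genes the lowest 48 hr library lay far above the highest 24 hr library. Separation was a condition of choice for these genes, as it was for Itgae.

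Socs3, an inhibitor of JAK-STAT signalling below cytokine receptors, rose from 149, 99.4 and 329 to 1698, 2144 and 1282 (3.29 ± 0.45, adjusted p = 0.000152). Il6ra, the ligand-binding chain of the interleukin-6 receptor, rose from 11.1, 24.5 and 23.6 to 167, 365 and 145 (3.4 ± 0.51). Drc1, a dynein regulatory complex subunit, had 120, 196 and 286 reads at 24 hr and 2748, 2438 and 503 at 48 hr, and the collagen gene Col27a1 had 13.4, 9.17 and 17.04 and then 93.1, 57.5 and 417. In Drc1 the third 48 hr replicate was the lowest and in Col27a1 the highest. Without that library the log2 change of Drc1 was 3.77 in place of 2.98, and that of Col27a1 was 2.43 in place of 3.26; without 48 hr replicate 2, Col27a1 rose by 3.84. With lane as a covariate Drc1 no longer passed (adjusted p = 0.325).

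**Figure D1:**
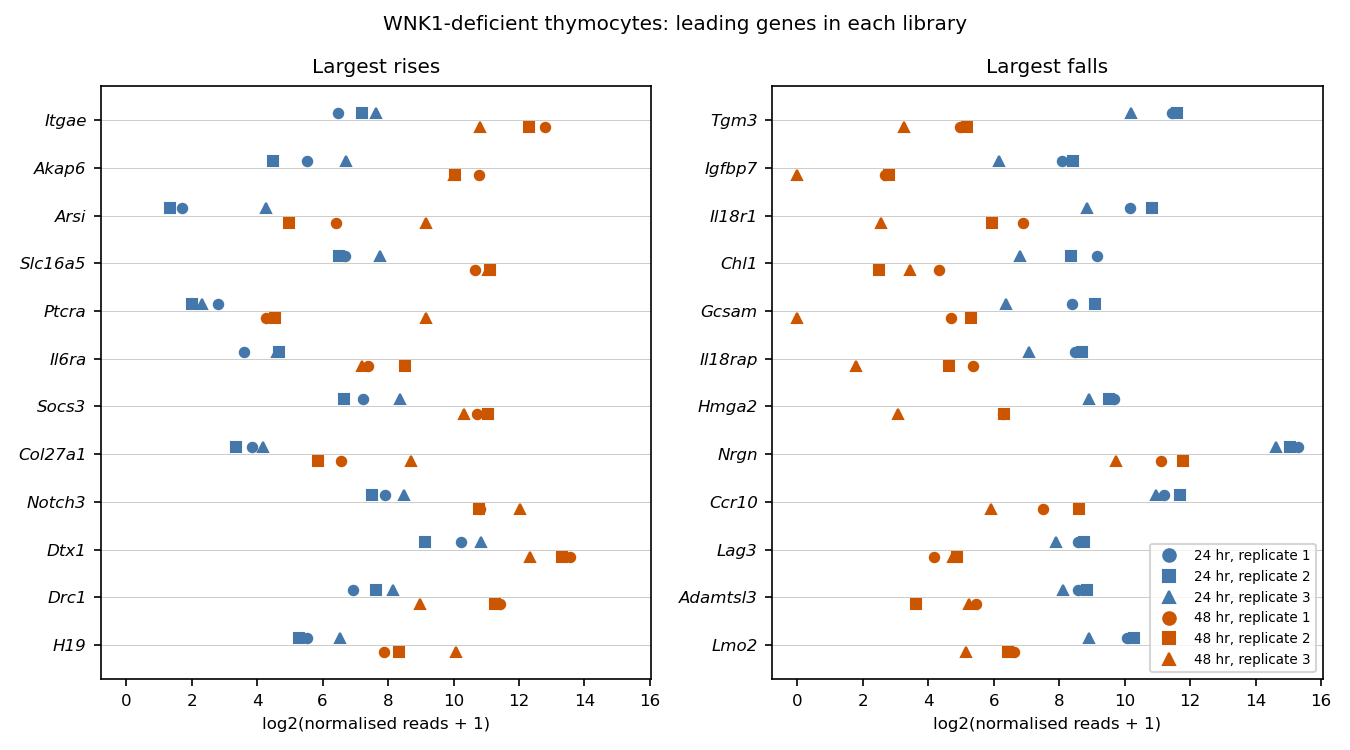
Values of the 12 largest rises and 12 largest falls in each WNK1-deficient library, as log2(normalised reads + 1) on the horizontal axis, with blue for 24 hr, orange for 48 hr and the shape of the point for the replicate. The groups do not overlap for any of the 24 genes, since non-overlap was a condition of their choice. The triangle of 48 hr replicate 3 lies far to the right for Arsi, Ptcra, Col27a1 and H19 and far to the left for Igfbp7, Il18r1, Gcsam, Il18rap and Hmga2.

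Notch3, Dtx1 and Ptcra were also among the 12 largest rises. The choice required a mean of at least 100, which several genes met only through the time when they were high. Ptcra, with a mean of 104.5, met it only through 48 hr replicate 3. The promoters of Notch3, Dtx1 and Ptcra (RefSeq, GRCm38.p6, minus strand, 250 bases before to 50 after the start) are shown because these genes rose. Capitals mark the letters TGGGAA, the core of the RBPJ recognition sequence, and CCAAT, the NF-Y box, each read on both strands.
Ptcra chr17:46763663-46763962: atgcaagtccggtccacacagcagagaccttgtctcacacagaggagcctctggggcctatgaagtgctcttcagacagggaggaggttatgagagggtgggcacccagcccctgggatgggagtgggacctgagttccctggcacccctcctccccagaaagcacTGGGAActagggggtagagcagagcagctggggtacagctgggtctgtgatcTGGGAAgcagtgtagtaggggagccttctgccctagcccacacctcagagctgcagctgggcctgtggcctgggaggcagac
Dtx1 chr5:120711620-120711919: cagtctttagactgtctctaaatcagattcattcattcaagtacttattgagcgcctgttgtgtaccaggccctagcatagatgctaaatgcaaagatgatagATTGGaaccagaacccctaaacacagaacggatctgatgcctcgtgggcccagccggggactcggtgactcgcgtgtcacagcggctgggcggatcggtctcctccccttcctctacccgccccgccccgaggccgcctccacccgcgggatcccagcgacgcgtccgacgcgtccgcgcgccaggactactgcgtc
Notch3 chr17:32166841-32167140: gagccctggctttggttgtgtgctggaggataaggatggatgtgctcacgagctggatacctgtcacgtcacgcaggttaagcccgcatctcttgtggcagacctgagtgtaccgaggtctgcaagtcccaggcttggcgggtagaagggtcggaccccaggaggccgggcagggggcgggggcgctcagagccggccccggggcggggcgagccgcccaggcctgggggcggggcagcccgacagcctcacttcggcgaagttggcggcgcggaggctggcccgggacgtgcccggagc
The Ptcra window held TGGGAA at 2 places and no CCAAT, the Dtx1 window held 1 CCAAT on the reverse strand and no TGGGAA, and the Notch3 window held neither. The window of Notch1, which also rose, held neither and is not shown. These are matches of letters and not measured sites. The search for TGGGAA was added after the rise of the Notch-related genes was seen.

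Of the 11912 promoter windows of the genes tested, 22.4% held TGGGAA, against 17.7% of the 446 windows of genes that rose and 27.7% of the 412 windows of genes that fell, with 25.6% over all windows in the table. For the 8 DN3 list genes that rose, described below, 17 windows were matched to 7 genes. TGGGAA was in 1 of these 17 windows (5.88%). The E-box CACGTG was in 8.52% of windows of genes that rose and 7.28% of those that fell, both under the 9.85% of the genes tested, with 7.15% over all. The cAMP response element TGACGTCA was in 14 windows (3.14%) of genes that rose and 1 window (0.243%) of genes that fell, with 3.11% over the genes tested and 1.79% over all. The E2F sequence TTTCCCGC was in 2.24% of windows of genes that rose and 1.94% of those that fell, close to the 1.99% of the genes tested (1.07% over all). The other E2F form, TTTGGCGC, was in 1 window of genes that rose, in none of genes that fell, in 0.940% over the genes tested and in 0.514% over all. CCAAT was in 31.4% and 35.0% of windows of genes that rose and fell, against 37.8% of the genes tested and 37.4% of all. The cell cycle homology sequence TTTGAA was in 8.97% and 15.3%, against 12.1% of the genes tested and 17.9% of all. Genes with several start sites contribute several windows, and windows were matched for 331 of the 480 genes that rose and 315 of the 465 that fell.

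The DN3 stage list, of genes expressed at that stage, had 18 members tested, of which 8 rose and none fell (3.56% and 3.45% over all genes). Its median log2 change was 1.08 against -0.03 over all genes. The 8 were Ptcra, Notch3, Dtx1, Hes1, Notch1, Bcl11b, Arpp21 and Tcf12. Arpp21 is also counted in the DP stage list below, and members of the list are not all particular to the DN3 stage. Notch3, a Notch receptor of immature thymocytes, had 240, 180 and 355 reads at 24 hr and 1774, 1765 and 4182 at 48 hr (log2 change 3.24 ± 0.60, adjusted p = 0.00265). Dtx1, the Deltex ubiquitin ligase, had 1197, 553 and 1835 and then 11977, 10106 and 5137 (3.00 ± 0.39, adjusted p = 0.000107). Bcl11b, a factor that fixes T lineage identity, went from 11341, 11637 and 16405 to 32800, 26919 and 25780 (1.13 ± 0.17, adjusted p = 0.000569). For all 3 genes the lowest 48 hr library lay above the highest 24 hr library, which was a condition of choice for Notch3 and Dtx1. Each of the 3 genes passed whichever of the 6 libraries was left out. The calls of Hes1 and Notch1 were lost without 24 hr replicate 1 or 2 or 48 hr replicate 1 or 3. That of Arpp21 was lost without any 1 of the 24 hr libraries or 48 hr replicate 1 or 3, and that of Tcf12 without 24 hr replicate 2.

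Ptcra, the pre-TCR α chain, differed from Notch3, Dtx1 and Bcl11b, since its call depended on single libraries. Its value in 48 hr replicate 3 stood far above the others of that time. It had 5.93, 3.06 and 3.93 normalised reads at 24 hr and 18.2, 22.5 and 574 at 48 hr. The log2 change of 3.62 ± 1.02 (adjusted p = 0.0357) became 2.04 without 48 hr replicate 3 (adjusted p = 0.154), and the call was also lost without 24 hr replicate 1 (0.0824), 2 (0.128) or 3 (0.0849). The imprinted noncoding RNA H19 was also highest in 48 hr replicate 3, with 45.2, 38.2 and 91.7 reads at 24 hr and 233, 324 and 1077 at 48 hr. Its log2 change was 2.32 without that library in place of 2.98. Its adjusted p of 0.0284 became 0.108 without 48 hr replicate 3, 0.101 without 24 hr replicate 1 and 0.125 without 24 hr replicate 2. Arsi, a sulfatase gene, was highest in 48 hr replicate 3 too (2.23, 1.53 and 18.3 reads, then 83.6, 30.4 and 570). Its adjusted p of 0.009 became 0.0564 and 0.0635 without 24 hr replicates 1 and 2 and 0.0474 without 48 hr replicate 3, with log2 changes of 4.04, 3.86 and 3.25 in place of 4.41. Rag2, one of the recombinase genes, also had its highest value in 48 hr replicate 3 (12.6, 4.59 and 17.04, then 23.6, 10.6 and 145) and did not pass (adjusted p = 0.272). The DN3 list counted 4 rises without 48 hr replicate 3, and 4, 3, 6, 5 and 10 without 24 hr replicates 1, 2 and 3 and 48 hr replicates 1 and 2. Its median was 0.60 without 48 hr replicate 3 and 1.88 within lane 3.

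Set beside the earlier times, these genes rose from a low point. In the 4 unstimulated deficient libraries Ptcra ranged from 3902 to 5164 normalised reads (median 4720), Notch3 from 7348 to 11152, Dtx1 from 5090 to 10320 and H19 from 14024 to 21723. The 48 hr values of Ptcra, Notch3 and H19 all lay under these ranges, whereas for Dtx1 the 48 hr values, 5137 to 11977, overlapped the unstimulated ones. Itgae ranged from 1046 to 2135 before stimulation, and 2 of its 3 libraries at 48 hr exceeded that range. In control thymocytes Ptcra did not pass between 24 hr and 48 hr (log2 change -0.86, adjusted p = 0.574), Notch3 changed by 1.43 (adjusted p = 0.0869) and Dtx1 rose by 2.75 (adjusted p = 0.000184). Control 24 hr replicate 3 stood apart in the first 2 of these, with 2344 reads of Ptcra against 59.2 and 115 and 6107 of Notch3 against 397 and 759. The difference between the genotypes in this step did not pass for any of the 3, at adjusted p = 0.25, 0.405 and 0.878.

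**Figure D2:**
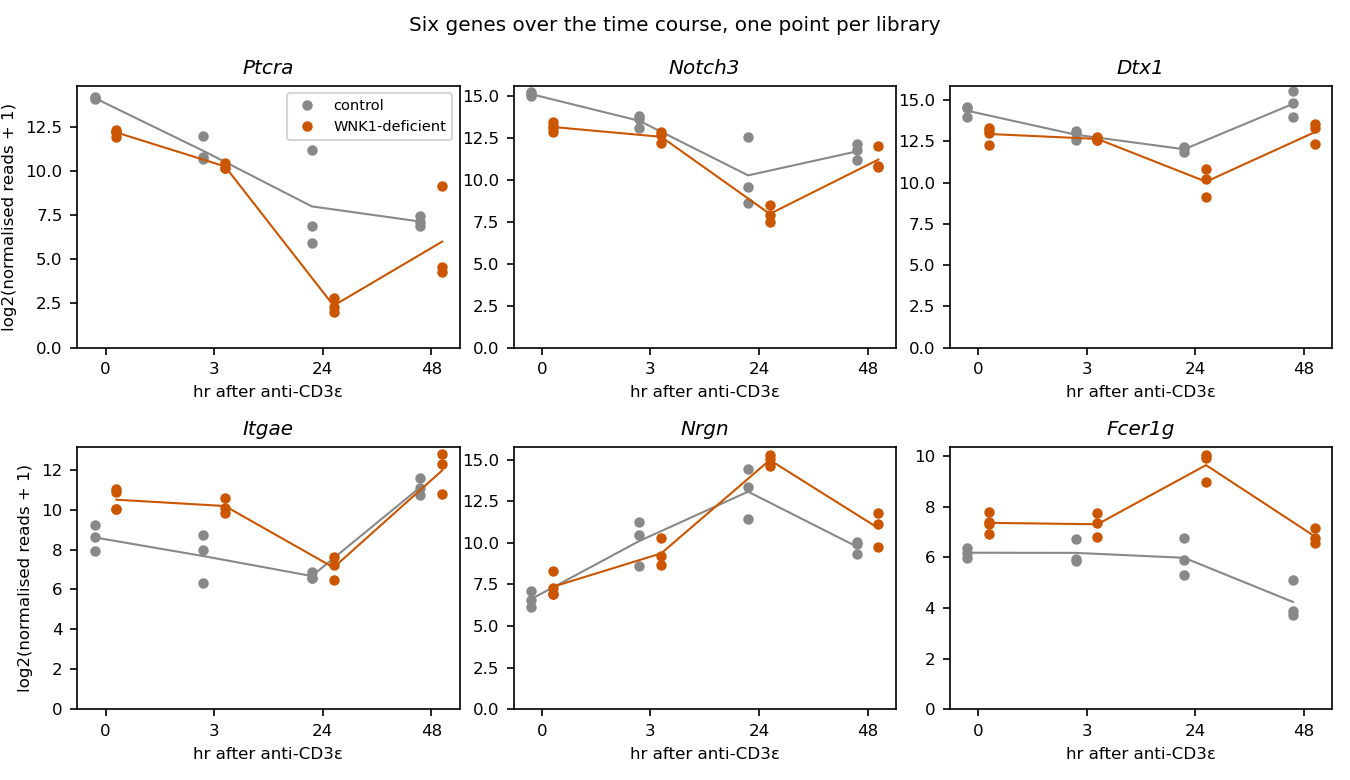
Levels of 6 genes as log2(normalised reads + 1) at 0, 3, 24 and 48 hr (horizontal axis, evenly spaced), 1 point for each library, with control in grey, WNK1-deficient in orange and lines through the group means. In the deficient libraries Ptcra, Notch3, Dtx1 and Itgae are lowest at 24 hr, Nrgn and Fcer1g are highest there, and 1 of the 3 Ptcra values at 48 hr stands far above the others.

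Among regulators of the T lineage, 4 of the 19 tested rose and 2 fell (3.56% and 3.45% over all genes), with a median change of 0.15. Runx3, a factor of CD8 and innate-like lineages, rose from 2881, 2732 and 4459 to 8728, 6924 and 7049 (1.2 ± 0.23, adjusted p = 0.00356), and Runx1 rose by 0.90. The 2 that fell were Zbtb7b, the ThPOK factor of CD4 cells (378, 416 and 185 to 39.1, 119 and 44.3), and Lef1 (25493, 28010 and 19629 to 12724, 14575 and 8630). Rises in this list numbered 3, 2, 4, 3, 5 and 3 and falls 0, 0, 2, 1, 3 and 0 without 24 hr replicates 1, 2 and 3 and 48 hr replicates 1, 2 and 3. Both named falls were lost without 24 hr replicate 1 (adjusted p = 0.101 for Zbtb7b and 0.119 for Lef1) or 2 (0.120 and 0.149) and without 48 hr replicate 1 (0.108 and 0.0725) or 3 (0.0716 and 0.124). Lmo2, an adaptor of stem and early progenitor cells, fell from 1067, 1235 and 480 to 96.4, 85.9 and 34.5 (-3.68 ± 0.98, adjusted p = 0.0252), a call lost without 24 hr replicate 1 (0.0954) or 2 (0.112) and without 48 hr replicate 1 (0.0509) or 3 (0.0802).

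The DP stage list had 3 rises among 20 members (Arpp21 and St3gal1 among them) and no falls, with a median change of 0.66. Over all genes 3.56% rose and 3.45% fell. The coreceptor chains had low counts and wide errors: Cd8a was at 14.8, 3.06 and 23.6 and then 66.8, 90.5 and 68.9, and Cd8b1 at 1.48, 3.06 and 2.62 and then 22.9, 37.0 and 59.1. Neither group of values overlapped the other, but the changes of 2.70 ± 1.19 and 3.52 ± 1.27 did not pass (adjusted p = 0.159 and 0.0901). Cd4 had 191, 205 and 170 reads and then 66.1, 253 and 44.3 (adjusted p = 0.505), and Trac, the TCR α constant region, had 1211, 1451 and 750 and then 314, 586 and 62.8 (adjusted p = 0.0941). The list counted 1, 0, 1 and 1 rises without 24 hr replicates 1, 2 and 3 and 48 hr replicate 1, and 2 rises and 2 falls with lane as a covariate.

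Thy1, the sorting antigen, rose from 10980, 11544 and 17950 to 33661, 49683 and 56155 normalised reads (1.79 ± 0.22, adjusted p = 5.58e-05), with 2.32 within lane 3. Its 3 values at 48 hr all lay above those at 24 hr. Its partner in the sort, Cd44, fell from 663, 741 and 689 to 353, 235 and 60.3 (-2.02 ± 0.59, adjusted p = 0.0426), a call that was lost without 24 hr replicate 1 (0.109), 2 (0.133) or 3 (0.0925) or 48 hr replicate 3 (0.172). Cd44 is also 1 of the 3 genes that fell among 19 markers of β-selection and early activation, with the costimulatory receptor Cd28 (12716, 14092 and 9674 to 7583, 5281 and 4825) and the activation antigen Cd83 (196, 261 and 122 to 41.8, 99.1 and 66.5). None of that list rose (3.56% rose and 3.45% fell over all genes), and its median was -0.55. Its falls numbered 0, 0, 3, 2, 5 and 1 without 24 hr replicates 1, 2 and 3 and 48 hr replicates 1, 2 and 3. The immediate-early genes Nr4a1 and Egr1 did not pass, with log2 changes of 0.58 ± 0.35 and -0.11 ± 0.36, nor did Cd27 (-0.46 ± 0.21), Cd69 (-0.14 ± 0.32) and Cd5 (0.27 ± 0.81). Cd5 had 1351, 1313 and 8363 reads at 24 hr, and replicate 3 stood apart.

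Of genes linked to quiescence and egress, 4 of 19 members of the FOXO and KLF2 list rose and none fell (3.56% and 3.45% over all genes). The median was 0.54. Klf3, a repressor of the Krüppel-like family, rose most, from 581, 440 and 780 to 3973, 1972 and 5360 (2.57 ± 0.34, adjusted p = 0.000127). Foxo3 rose from 3787, 3656 and 4421 to 7656, 6649 and 6735 (0.83 ± 0.16, adjusted p = 0.00418), and the antiproliferative gene Btg2 from 2853, 3040 and 3440 to 4901, 5709 and 5142 (0.76 ± 0.14, adjusted p = 0.00286). These 3 passed on leaving out each library, and Ets1 was the fourth (0.54 ± 0.14, adjusted p = 0.0241), lost on leaving out 24 hr replicate 1 (0.0658), 24 hr replicate 2 (0.0814), 24 hr replicate 3 (0.0834) and 48 hr replicate 1 (0.0904). S1pr1, the receptor that guides egress, split the 48 hr libraries: it had 369, 228 and 583 reads and then 2074, 1929 and 137, and it did not pass (adjusted p = 0.587), nor did its regulator Klf2 (2368, 1993 and 3780, then 6084, 5826 and 2889).

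Of 10 SOCS and PIM genes, 3 rose, namely Socs3, Cish and Socs1, and none fell, with a median of 0.53. Over all genes, for this and the other lists of this paragraph, 3.56% rose and 3.45% fell. Cish had 363, 397 and 620 reads and then 2030, 1442 and 743 (1.53 ± 0.45), and Socs1 had 638, 1068 and 1249 and then 1681, 2555 and 1643 (1.02 ± 0.27). Without 24 hr replicate 1 or 2, Socs3 was the only call of this list, with 48 hr replicate 1 left out there were 2, and with lane as a covariate 1. Among 12 feedback regulators of MAP kinase, the Sprouty gene Spry1 fell from 342, 316 and 165 to 62.0, 60.8 and 113 (-1.78 ± 0.30, adjusted p = 0.00122) and the phosphatase gene Dusp5 rose from 989, 1102 and 1459 to 2510, 2478 and 2585 (1.11 ± 0.19, adjusted p = 0.00142). Of 32 CD3 chains and proximal TCR signalling genes, 4 rose (Sos1, Grap2, Sla2 and Lat) and Cblb, a ubiquitin ligase that restrains TCR signalling, fell from 10236, 11749 and 7227 to 5343, 5121 and 3078 (-1.12 ± 0.23, adjusted p = 0.00578). The rises in that list numbered 0, 1 and 2 without 24 hr replicates 1 and 2 and 48 hr replicate 1. With lane as a covariate none of that list rose and 2 fell, and its median was -0.19 in place of 0.13. Cd3e did not pass (0.23 ± 0.22).

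**Figure D3:**
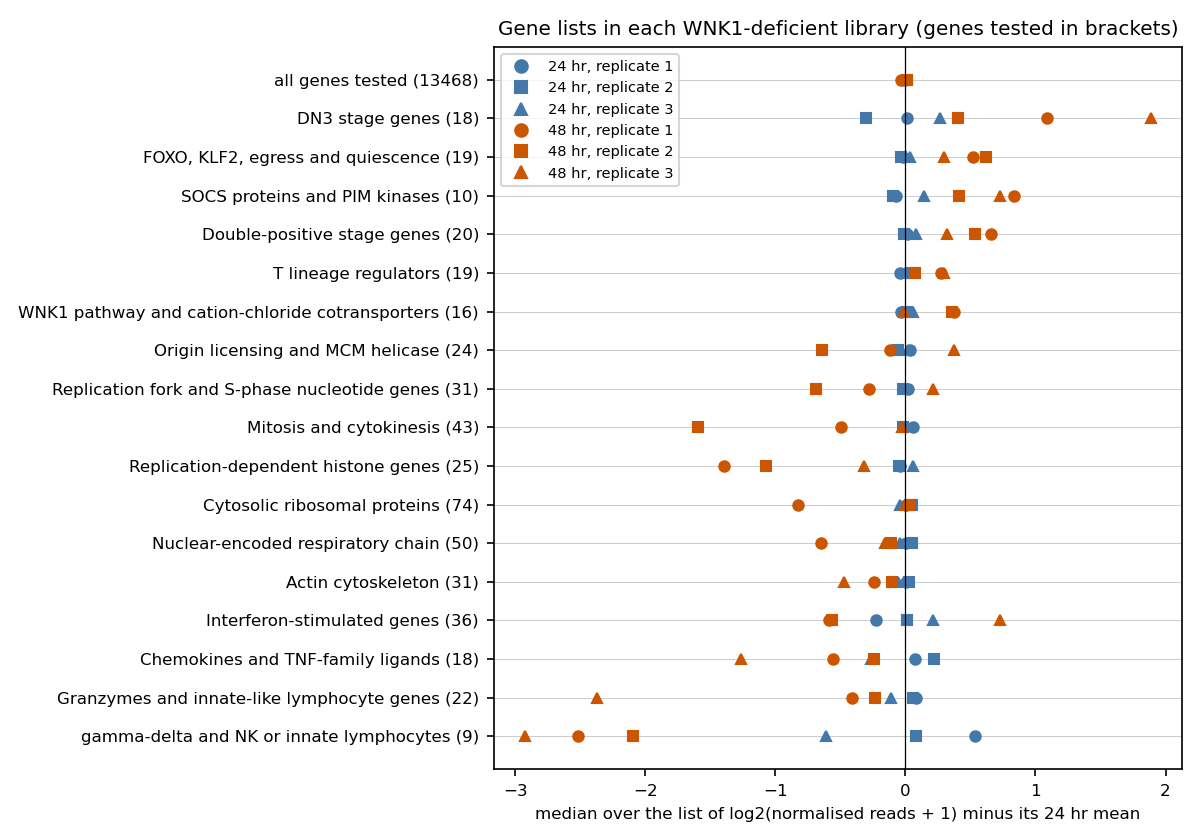
Median, over the tested members of each list, of log2(normalised reads + 1) minus the gene's mean at 24 hr, 1 point for each WNK1-deficient library, with blue for 24 hr and orange for 48 hr. At 48 hr the DN3 list lies at 1.09, 0.41 and 1.89 in replicates 1, 2 and 3 and the NK and innate marker list at -2.52, -2.10 and -2.93, whereas the mitosis list is near its 24 hr level in replicate 3 (-0.03) and lowest in replicate 2 (-1.60). Several members of the NK and innate marker list met the filter on the mean only through their 24 hr values.

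On the falling side, Tgm3, a transglutaminase, changed most. Tgm3 (chr2:129987794-130050399) had 2785, 3092 and 1174 normalised reads at 24 hr and 30.3, 35.7 and 8.62 at 48 hr (-6.60 ± 0.65, adjusted p = 3.95e-06). Nrgn, neurogranin, a calmodulin-binding protein, fell from 39814, 33932 and 25187 to 2206, 3539 and 859 (-4.10 ± 0.67, adjusted p = 0.00102). Lag3, an inhibitory receptor of activated T cells, fell from 381, 433 and 239 to 16.9, 28.4 and 25.8 (-3.82 ± 0.61, adjusted p = 0.000865), and Hmga2, a chromatin protein of proliferating immature cells, from 809, 738 and 480 to 77.6, 79.3 and 7.38. Separation was required of the largest falls, and every 48 hr value of these 4 genes lay far below the lowest 24 hr value.

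Igfbp7, which binds insulin-like growth factors, fell from 271, 342 and 70.8 to 5.40, 5.95 and 0 (-5.73 ± 0.88, adjusted p = 0.000581). The chemokine receptor Ccr10 fell from 2334, 3285 and 1990 to 180, 384 and 59.1 (-3.94 ± 0.78), the adhesion molecule gene Chl1 from 567, 330 and 110 to 18.9, 4.62 and 9.85 (-4.69 ± 0.88) and Adamtsl3 from 383, 463 and 275 to 42.5, 11.2 and 36.9 (-3.75 ± 0.76). These too were separated in all libraries, as the rule of choice required, and all passed on leaving out each library. Adamtsl3 did not pass with lane as a covariate (adjusted p = 0.153). Without 48 hr replicate 3 the falls were smaller for Tgm3 (-6.00), Igfbp7 (-4.82), Hmga2 (-3.06) and Ccr10 (-3.23). Without 24 hr replicate 3 they were larger for Igfbp7 (-6.43) and Chl1 (-5.35), and without 48 hr replicate 2 Ccr10 was at -4.57.

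Both chains of the interleukin-18 receptor fell. Il18r1 had 1136, 1833 and 460 reads at 24 hr and 119, 60.8 and 4.92 at 48 hr (-4.81 ± 1.26, adjusted p = 0.0241), and Il18rap had 353, 414 and 134 and then 39.8, 23.8 and 2.46 (-4.16 ± 0.97, adjusted p = 0.0124). Gcsam, a signalling adaptor of lymphocytes, went from 336, 547 and 81.3 to 24.95, 38.3 and 0 (-4.62 ± 1.30, adjusted p = 0.0343). In each of them 48 hr replicate 3 was the lowest library, and without it the adjusted p was 0.105, 0.0600 and 0.146 and the log2 change -3.52, -3.09 and -2.95. The calls were also lost without 24 hr replicate 1 (adjusted p = 0.0855, 0.0602 and 0.118) or 2 (0.116, 0.0690 and 0.151).

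Several NK and innate-like lymphocyte genes fell in the deficient cells, while others rose or did not pass. Of 22 genes in the list of granzymes and innate-like lymphocyte genes, 6 fell (Klrc1, Ncr1, Fcer1g, Eomes, Klrk1 and Tyrobp) and 2 rose (Maf and Sox13), while 14 did not pass, and 7 of the 22 changes were above 0. Over all genes 3.45% fell and 3.56% rose. The median of the list was -1.11, and -0.36 without 48 hr replicate 3. Fcer1g, the signalling chain shared by Fc and NK receptors, had 1044, 972 and 506 reads at 24 hr and 142, 108 and 93.5 at 48 hr (-2.81 ± 0.40, adjusted p = 0.000257), and it passed on leaving out each library. Its partner adaptor Tyrobp fell by 1.86 ± 0.43 on the log2 scale. Ncr1 and Eomes, a receptor and a transcription factor of NK cells, went from 108, 118 and 59.0 to 18.2, 20.5 and 3.69 and from 84.6, 64.2 and 22.3 to 7.42, 11.9 and 2.46. The factors of γδ T cells moved the other way, Maf from 530, 483 and 729 to 2700, 3035 and 1980 (2.15 ± 0.26, adjusted p = 3.91e-05) and Sox13 from 2652, 2935 and 3847 to 8920, 8886 and 6549 (1.37 ± 0.28, adjusted p = 0.00578). Falls in this list numbered 1, 2, 4, 2, 5 and 2 without 24 hr replicates 1, 2 and 3 and 48 hr replicates 1, 2 and 3, and the granzyme Gzma had 4952, 3696 and 8988 and then 9575, 9337 and 45643 reads without passing.

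A list of γδ, NK and innate lymphocyte markers, chosen with earlier results of these data known, moved with these genes, which share members with it. Of its 9 tested members 5 fell (Il1rl1, Klra1, Ncr1, Eomes and Klre1) and none rose (3.45% and 3.56% over all genes), with a median of -2.64. Its falls numbered 2, 2, 3, 2, 4 and 2 without 24 hr replicates 1, 2 and 3 and 48 hr replicates 1, 2 and 3. At 48 hr Il1rl1, Klra1, Klre1 and Eomes reached at most 0, 1.32, 3.96 and 11.9 normalised reads. They met the filter on the mean through their 24 hr values, so the count and the median are partly set by that filter. Il1rl1, the interleukin-33 receptor, had 68.2, 64.2 and 14.4 reads at 24 hr and 0 in all 3 libraries at 48 hr, at least 19.1-fold lower when set against a floor of 3 reads per library. The summed level of the list, which is mostly Trgc1, Trgc2 and Gzma, did not fall: it ran from 35144 to 49371 normalised reads at 24 hr and from 45583 to 94196 at 48 hr, and no member was at 0 in all 6 libraries. In sorted populations fewer cells of a type and less RNA per cell cannot be told apart, and the part of a change in cell makeup in the falls above was not tested. None of the tested markers of B cells (4), myeloid cells (8), dendritic cells (4), thymic epithelium (6), erythroid cells (2) or stroma and endothelium (4) passed in either direction.

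The list of chemokine and TNF-family ligand genes, which also holds Il34, a cytokine of neither family, included 3 falls and 1 rise among 18. Its median was -1.02, and over all genes 3.45% fell and 3.56% rose. Ccl5 fell from 768, 917 and 573 to 109, 116 and 110 (-2.72 ± 0.75, adjusted p = 0.0302), Xcl1 from 1117, 1160 and 237 to 49.2, 244 and 14.8, and Tnfsf10, which encodes the death ligand TRAIL, from 4170, 4349 and 3258 to 2486, 1503 and 1884, while Il34 rose from 0.742, 1.53 and 2.62 to 22.3, 44.3 and 19.7. The Xcl1 value of 24 hr replicate 3 lay just below the highest value at 48 hr, so that the groups overlapped for this gene. The Il34 call was lost without 24 hr replicate 1 (adjusted p = 0.102) or 2 (0.0839) and without 48 hr replicate 1 (0.0588) or 2 (0.0587). No member fell without 24 hr replicate 1, 24 hr replicate 2 or 48 hr replicate 3, and 1 fell without 48 hr replicate 1. The chemokine receptor Ccr8 rose from 28.9, 41.3 and 57.7 to 235, 540 and 144 (2.65 ± 0.63, adjusted p = 0.0137), which did not pass without 24 hr replicate 1 (0.0729), 24 hr replicate 2 (0.0549) or 48 hr replicate 2 (0.0506), and Cxcr4 did not pass (0.20 ± 0.19).

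Genes of the actin cytoskeleton included 5 falls and no rise among 31 tested (3.45% and 3.56% over all genes), with a median of -0.22. Lcp1, the actin-bundling protein L-plastin, fell from 89420, 100120 and 71205 to 53027, 48787 and 34828 (-0.94 ± 0.19, adjusted p = 0.0041), and it passed on leaving out each library. Actb fell by 0.74 ± 0.20 on the log2 scale, Actg1 by 0.93 ± 0.23 and the capping protein gene Capg by 1.30 ± 0.32, and Arpc3 was the fifth. In control cells Actb, Actg1 and Lcp1 had log2 changes of 0.20, -0.12 and -0.15, none of which passed, and the difference between genotypes did not pass for any of them (adjusted p = 0.215, 0.333 and 0.263). The count of falls was 1, 1, 4, 2, 8 and 1 without 24 hr replicates 1, 2 and 3 and 48 hr replicates 1, 2 and 3.

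Genes of the WNK1 pathway and cation-chloride transport included 3 rises among 16, Wnk1 itself, the KCC4 cotransporter gene Slc12a7 (1578, 1608 and 1858 to 3042, 3181 and 2391) and the volume-regulated anion channel subunit gene Lrrc8c (1503, 1509 and 1961 to 3529, 2248 and 2560). Over all genes 3.56% rose. This list had no rises without 24 hr replicate 1, 24 hr replicate 2 or 48 hr replicate 1. It had none with lane as a covariate either, where the list median was 0.017 in place of 0.26. The WNK1 substrate kinases had log2 changes of -0.04 ± 0.11 (Oxsr1) and -0.08 ± 0.35 (Stk39), and the NKCC1 cotransporter gene Slc12a2 of 0.53 ± 0.31, and none of the 3 passed.

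Few single cell cycle genes passed in the deficient cells, where 7.02% of all genes did. None of 24 origin licensing genes and none of 31 replication fork and S-phase genes was called by limma, with 0 and 2 of them at an unadjusted p under 0.05. DESeq2 on recovered reads called 2 falls in the fork list and edgeR none. In control cells 27 of the same 31 fork genes fell (10.3% over all genes), with a median of -0.95 against -0.23 here. The difference between the genotypes in this step did not pass for any of these fork genes. All 43 mitosis and cytokinesis genes had a change below 0, with a median of -0.69, and for 20 of them the groups did not overlap (33.5% over all genes). At an unadjusted p under 0.05 there were 17, and 2 fell past the threshold, against 3.45% of all genes. These 2 were Pttg1, the securin gene (1131, 1087 and 796 to 378, 581 and 267, -1.35 ± 0.25, adjusted p = 0.00279), and Cenpa, the centromeric histone (3223, 2904 and 2705 to 1629, 1010.1 and 1923). The count was 6 without 48 hr replicate 3 and 10 by DESeq2, while 1 of the 2 passed without 24 hr replicate 1, without 24 hr replicate 2 and without 48 hr replicate 2. Of 25 replication-dependent histone genes none passed, with 9 at an unadjusted p under 0.05 and a median of -0.87; edgeR and DESeq2 called 1 and 6 falls. With lane as a covariate the medians of the licensing, fork and mitosis lists turned to 0.39, 0.23 and 0.15, and that of the histones was -0.07. The 48 hr libraries differed among themselves, as in Mki67 with 22330, 6051 and 26556 reads, against 18957 to 19929 at 24 hr (adjusted p = 0.701). Ccne1, Cdk2 and Cdkn1b did not pass (-0.40 ± 0.35, -0.23 ± 0.18 and 0.32 ± 0.16), nor did Myc, at 3797, 4286 and 3059 and then 5134, 4673 and 10199.6 (adjusted p = 0.201), but Ccnd3, the cyclin D3 gene, rose from 5001, 4254 and 5484 to 9424, 8621 and 14489 (1.11 ± 0.19, adjusted p = 0.00132). Il2ra, which encodes CD25, had 8202, 7374 and 12039 reads and then 22173, 8068 and 25196, and did not pass (adjusted p = 0.211).

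Few genes of the housekeeping lists passed, against 3.56% rises and 3.45% falls over all genes. Of 74 ribosomal protein genes 1 rose, of 50 nuclear-encoded respiratory chain genes 2 fell, and of 35 proteasome and 34 ribosome biogenesis genes none passed, with medians of -0.27, -0.31, -0.27 and 0.23. In the first 3 of these lists the 48 hr replicate 1 library was the lowest, at -0.82, -0.65 and -0.52. The 2 respiratory chain falls were lost without any 1 of the 24 hr libraries or 48 hr replicate 1, and there were 10 without 48 hr replicate 2. Of 26 glycolysis genes 2 fell, led by Eno3, the β-enolase gene, from 1332, 1813 and 971 to 271, 453 and 244 (-2.09 ± 0.36, adjusted p = 0.00144). None of 36 interferon-stimulated genes passed, and their median by library at 48 hr was -0.58, -0.56 and 0.73 in replicates 1, 2 and 3. DESeq2 and edgeR counts over all genes were larger than those of limma, at 1866 and 1267.

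The same step in control thymocytes had 3180 genes called by limma (23.6%), of which 1799 rose (13.4%) and 1381 fell (10.3%). The count tests, which leave out control 48 hr replicate 3, did not give this larger number: edgeR called 1225 in control against 1267 in deficient cells, and DESeq2 1876 against 1866. Of the 480 genes that rose without WNK1, 324 also rose in control, and of the 465 that fell, 204 also fell in control; these 528 are 55.9% of the calls in deficient cells and 16.6% of those in control. Across the 13468 genes, the log2 changes of the genotypes had a Pearson r of 0.49, given as a description, since genes are not independent. Itgae rose by 4.46 and Socs3 by 3.22 in control, and Tgm3 fell by 4.53 and Nrgn by 3.30, all past the threshold. Igfbp7 (-1.31), Lag3 (-0.79), Il18r1 (0.35) and Lmo2 (0.69) did not pass in control, and the difference of the steps did not pass for any of these 4 either (adjusted p = 0.186, 0.192, 0.285 and 0.242). Igfbp7 was near the floor in control, with means of 3.03 and 0.334 normalised reads at 24 hr and 48 hr, so it had little to lose there.

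**Figure D4:**
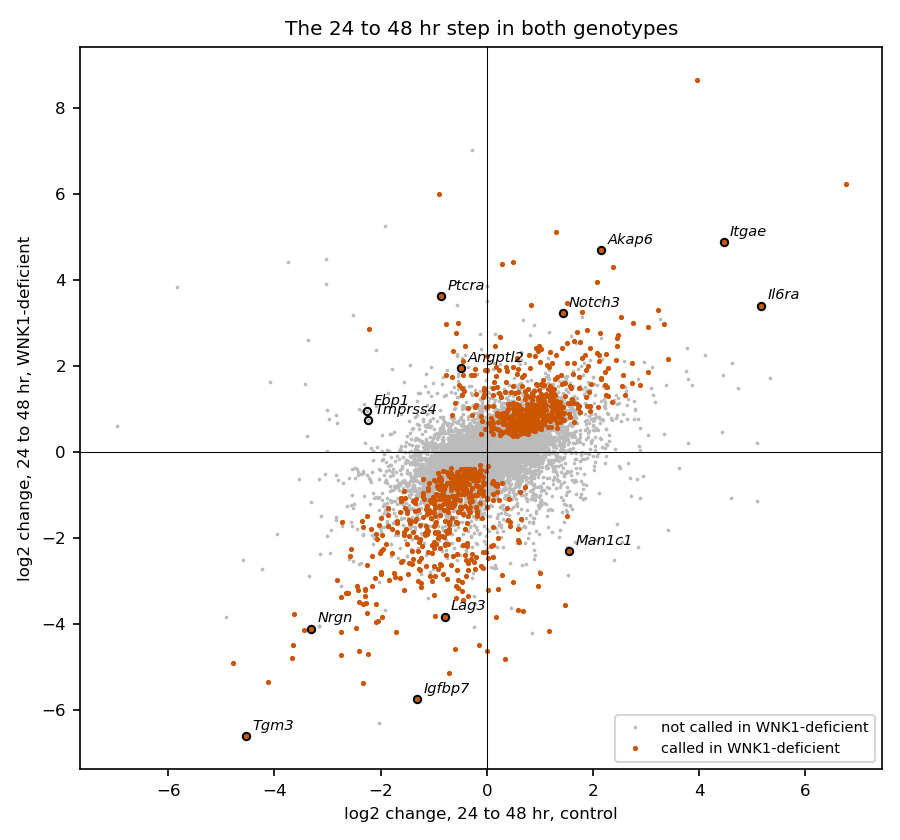
Log2 change from 24 hr to 48 hr in control (horizontal axis) and WNK1-deficient thymocytes (vertical axis), 1 point for each of the 13468 genes, with orange for the 945 called in the deficient cells and named genes ringed. Most orange points lie in the upper right and lower left of the plot, and Angptl2, Fbp1, Tmprss4 and Man1c1 lie outside those areas.

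A set of 4 genes differed between the genotypes in this step of 13468 (0.0297%) by limma, against 1610 at an unadjusted p under 0.05, 2 by edgeR and 71 by DESeq2. The number was 145 without 48 hr replicate 2 of the deficient cells, 52 without control 24 hr replicate 2 and 43 with lane as a covariate. Angptl2, a secreted angiopoietin-like protein, rose in deficient cells from 616, 587 and 752 to 2408, 1896 and 3508 (1.96 ± 0.23), while control libraries had 2193, 2645 and 3267 at 24 hr and 2176, 2308 and 1389 at 48 hr (difference of the steps 2.44, adjusted p = 0.00261). Man1c1, a Golgi mannosidase, fell from 73.4, 74.9 and 52.4 to 18.2, 17.2 and 6.15 without WNK1 and rose in control from 59.2, 36.6 and 17.4 to 50.5, 115 and 174 (difference -3.86, adjusted p = 0.0445). Tmprss4, a membrane serine protease, and Fbp1, a gluconeogenic phosphatase, did not pass in deficient cells (0.74 ± 0.34 and 0.95 ± 0.33) and fell in control, with log2 changes of -2.23 and -2.25 there and differences of 2.97 (adjusted p = 0.0174) and 3.20 (0.00508). Besides Man1c1, the genes Cd83 and Cyria fell and Acot5 rose in deficient cells and were called in the other direction in control, with a difference between the steps that did not pass (adjusted p = 0.0539, 0.0978 and 0.0978). The deficient-cell call of Cyria was lost on leaving out any 1 of the 6 libraries (adjusted p from 0.0602 to 0.129). That of Cd83 was lost without 24 hr replicate 1 (0.0903), 24 hr replicate 2 (0.139) or 48 hr replicate 1 (0.128). Acot5 had 2.23, 1.53 and 0 reads and then 4.05, 5.95 and 87.4, and its call was lost without 24 hr replicate 1 (0.0564), 2 (0.0752) or 3 (0.118) or 48 hr replicate 3 (0.125), the last with a log2 change of 1.56 in place of 2.86.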

How the data were processed

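RNA was measured in 25 libraries of Thy1.2+CD44- thymocytes, each from a separate mouse. Per the labels and the methods, the authors trimmed single-end reads of stranded poly(A) libraries with Trimmomatic, aligned them with STAR, counted genes with RSEM (GRCm38, Ensembl annotation) and divided the counts by DESeq2 size factors. The deposited values are this normalised signal, read here as normalised read counts. Recovered values lay within 0.001 of a whole number in all 25 libraries, and 23 of them also passed a test on low values. Control 48 hr replicate 3 and 1 control library of 3 hr did not pass that test and were left out of count tests.

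Genes with a mean of at least 10 over the 6 libraries were kept and 464 on X or Y left out; 1107 of unknown chromosome were kept, and 12074 had GRCm38 coordinates by symbol from RefSeq. limma 3.58.1 (R 4.3.3, trend, 8 group means, 25 libraries) was run on log2(value + 1), with Benjamini-Hochberg adjustment over 13468 genes and a threshold of 0.05; fold changes of low genes are understated on this scale. The genotype difference of the step was the interaction contrast. edgeR 4.0.16 and DESeq2 1.42.0 were run on recovered reads as alternatives, as were other pseudocounts, filters, scalings, the replicate block, lane and single libraries left out. The fit was tested on simulated data.

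The 49 gene lists and 8 marker lists (1047 of 1139 names tested) and the members were chosen with earlier results of these data known. Genes described singly came from this rule: the 12 largest rises and falls with a mean of at least 100 and groups that did not overlap, up to 4 called members of each list, a fixed set of thymocyte and WNK1 genes, and the genes differing between genotypes. Acot5, Arpc3, Cyria, Fbp1, Gzma, Klre1, Klrk1, Lck, Maf, Man1c1, Notch1, Runx1, Sox13, Trgc1, Trgc2, Tyrobp and the sex-linked and defining marker genes were named after their values were seen. Some marker and list genes are not reported here by name.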

Additional observations from a re-analysis of the deposited data

Results flagged for a closer look

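In 4 genes the step from 24 hr to 48 hr differed between WNK1-deficient and control thymocytes by the interaction term of limma. The difference, deficient minus control, was 2.44 on the log2 scale for Angptl2 (adjusted p = 0.00261), 2.97 for Tmprss4 (0.0174), 3.20 for Fbp1 (0.00508) and -3.86 for Man1c1 (0.0445).

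Of the 4 unstimulated deficient libraries, 1 lay far from the others for Nrgn, at 314 normalised reads against 120, 122 and 152, with a gap of 0.834 of the group's whole range. Of the 6 genes examined in that group, this was the only one with such a gap, and chance gives it in about 1 group of 20.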

How the results depend on the processing

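The 945 calls between 24 hr and 48 hr became 1866 with DESeq2, 453 with lane as a covariate, 549 in a fit of only the libraries compared, 29 when a change of at least 2-fold was tested and 321 to 1326 on leaving out single libraries. The list members called, 81 in all, became 167, 51, 51 and 6 in the same order, 123 with quantile normalization and 27 to 114 on leaving out single libraries. The 4 genotype differences became 71 with DESeq2, 2 with edgeR, 43 with lane, 1 with only the libraries compared, 0 with the 2-fold test, 10 without genes of unknown chromosome, 2 with a mean of at least 100, 13 with no filter, 8 with no trend, 10 with a robust trend, 15 with a pseudocount of 5, 7 with quantile normalization, 1 without both deficient 48 hr replicate 3 and control 24 hr replicate 3 (added after the data were seen) and 2 to 145 on leaving out single libraries. The cause of these moves was not tested.

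The replicate numbers did not pair the libraries (correlations of same-numbered deviations -0.009, 0.117 and -0.033), and with a replicate block 796 genes passed, 405 of them rises, with 74 list members and 3 genotype differences.

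The log2 changes that turned sign all belonged to genes that did not pass. With lane as a covariate they were 0.035 for Ccne1, -0.28 for Cd5, 0.082 for Cdk2, 0.29 for Cd69, 0.63 for Mki67, -0.10 for Cd3e, 0.28 for Egr1 and -1.20 for S1pr1. DESeq2 and edgeR gave -0.17 and -0.16 for Cd5 and 0.044 and 0.055 for Stk39. Without both libraries named above the values were 0.39 for Stk39, 0.0024 for Oxsr1 and -0.024 for Cxcr4. On leaving out single libraries values ran from -0.19 to 1.15 for Cd5, from -0.36 to 0.39 for Stk39, from -0.33 to 0.086 for Cd69, from -0.74 to 0.32 for Mki67, from -0.12 to 0.018 for Oxsr1, from -0.29 to 0.18 for Egr1 and from -0.024 to 0.43 for Cxcr4. Depth limits mainly genes of a few reads, such as Cd8b1 and Il34.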
